A study of Homo sapiens with 8 samples.

Results

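Aminoacyl-tRNA synthetases were followed in AsPC-1 and PANC-1, 2 human lines from pancreatic cancers, treated with roseoflavin, trametinib or both. The members were the genes whose symbols follow the pattern of this family (an amino acid letter followed by ARS, with EPRS1, FARSA and FARSB) and that carry a RefSeq mRNA accession, and 38 of the 62649 genes in the table met this rule. Of these, 21 encode cytosolic enzymes and 17, those with symbols ending in 2, encode enzymes of the mitochondrion. Both lines are unmodified (labelled WT) and were grown as spheroids for 3 days in medium thickened with methylcellulose. They were then given vehicle, roseoflavin at 10 µM, trametinib at 1 nM or both compounds for 24 h. The antibiotic roseoflavin resembles riboflavin in structure, and trametinib inhibits the MEK kinases of the MAPK pathway. Each of the 8 groups is 1 library, so no group has a replicate. Errors come from models that treat the libraries with and without the other compound as the replication, and p-values measure only that spread.

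An aminoacyl-tRNA synthetase joins an amino acid to its tRNAs, which makes the substrate that the ribosome reads. Human cells hold separate sets of these enzymes for the cytosol and for the mitochondrion, both encoded in the nucleus, while KARS1 and GARS1 each encode both forms from a single gene. In the cytosol, 8 of the enzymes, such as EPRS1, IARS1, LARS1 and MARS1, are held in the multisynthetase complex by the scaffold proteins AIMP1, AIMP2 and EEF1E1, and the other 13 symbols encode free enzymes or their subunits. Many of the cytosolic genes are known targets of ATF4, the transcription factor that is made when translation initiation is slowed through eIF2 alpha, and it binds with C/EBP proteins to a composite DNA element (CARE).

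Levels are in TPM, a length-scaled share of transcripts with the same total in every library, so the sequencing depth behind each value is unknown. All 38 members were among the 19122 genes that reached 1 TPM in 2 or more libraries. Transcripts of the mitochondrial genome made up 22.8% to 25.6% of the PANC-1 total and 41.2% to 44.1% of the AsPC-1 total, and the values of all other genes move with that share. In PANC-1 the share was 25.6% with vehicle and 24.8% with trametinib, against 23.7% with roseoflavin and 22.8% with both. The line labels were checked on EPCAM, an epithelial gene, which PANC-1 held at 14.5 to 16.8 TPM and AsPC-1 at 1224 to 1485 TPM, and on VIM, a mesenchymal gene, at 3132 to 3391 TPM and 660 to 816 TPM. PTPRC, PECAM1 and CDH5, which define leukocytes and endothelial cells, were at 0.073 TPM or less in every library, while CD68 was at 108 to 139 TPM in both lines. As these are bulk samples, fewer cells with a transcript and less of it per cell cannot be told apart.

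Promoter sequences are shown here for the members that hold the letters of the ATF4 element, because the cytosolic members that were higher after roseoflavin in PANC-1 include all of the cytosolic ones among them. RefSeq promoter windows (GRCh38.p14, 250 bases before to 50 bases after the annotated start) were matched for 30 of the 38 members, 16 cytosolic and 14 mitochondrial. The motif TGATGNAA, searched on both strands, was found for 7 of the 16 cytosolic members and for 1 of the 14 mitochondrial ones, YARS2. Some members have more than 1 window, and a match in any of them was counted. Among the 11355 tested genes with a window, 2.68% held it, and 3.62% of all 35116 windows of this length did. Each sequence below is a stretch of 30 bases on the strand of the gene, 5′ to 3′, with the motif (or its reverse complement) in capitals.
AARS1: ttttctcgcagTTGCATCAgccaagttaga
CARS1: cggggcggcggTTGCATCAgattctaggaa
GARS1: ttacgcggcgaTTTCATCAtgctccgagcc
IARS1: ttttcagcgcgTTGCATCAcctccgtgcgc
MARS1: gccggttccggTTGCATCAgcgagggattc
NARS1: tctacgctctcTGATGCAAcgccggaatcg
TARS1: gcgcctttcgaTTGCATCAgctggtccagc
YARS2: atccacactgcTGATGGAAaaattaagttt
The stretches lie at chr16:70289675-70289704 (AARS1, minus strand), chr11:3057407-3057436 (CARS1, minus strand), chr7:30594834-30594863 (GARS1, plus strand) and chr9:92293692-92293721 (IARS1, minus strand). Those of MARS1 (plus strand), NARS1 (minus strand), TARS1 (plus strand) and YARS2 (minus strand) lie at chr12:57488053-57488082, chr18:57621804-57621833, chr5:33440956-33440985 and chr12:32756076-32756105. In 6 of the 7 cytosolic genes the motif began within 33 bases of the annotated start, and in AARS1 it began 187 bases before it. In YARS2, the tyrosine enzyme of the mitochondrion, it began 197 bases before the start. A match describes these letters and is not evidence of binding. The motif of NRF2, TGACNNNGC, searched in the same way, was in the windows of 6 of the 30 members (4 cytosolic and 2 mitochondrial) and in 19.1% of the tested genes with a window.

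After roseoflavin, transcripts of most cytosolic synthetases stood higher in PANC-1, while most of those for the 17 mitochondrial enzymes did not. KARS1 and GARS1, which encode both forms, are counted here as cytosolic. The summed level of the 21 cytosolic members was 1524 TPM with vehicle and 1664 TPM with roseoflavin (9.24% higher), and 1507 TPM with trametinib and 1664 TPM with both compounds (10.4% higher). The 17 mitochondrial members summed to 511 TPM with vehicle and 510.2 TPM with roseoflavin, and to 523 TPM with trametinib and 510.04 TPM with both. In AsPC-1 the cytosolic sum was 807 TPM with vehicle, 808 TPM with roseoflavin, 838 TPM with trametinib and 833 TPM with both. With the mitochondrially encoded transcripts taken out and each library rescaled, the cytosolic sum in PANC-1 was still 6.51% higher with roseoflavin and 7.53% higher with both, while the corresponding differences in the mitochondrial sum were -2.69% and -5.05%. With the same rescaling, AsPC-1 had a cytosolic sum 5.23% higher and a mitochondrial sum 4.90% higher with roseoflavin than with vehicle, and differences of -2.13% and -3.43% with both compounds against trametinib.

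**Figure D1:**
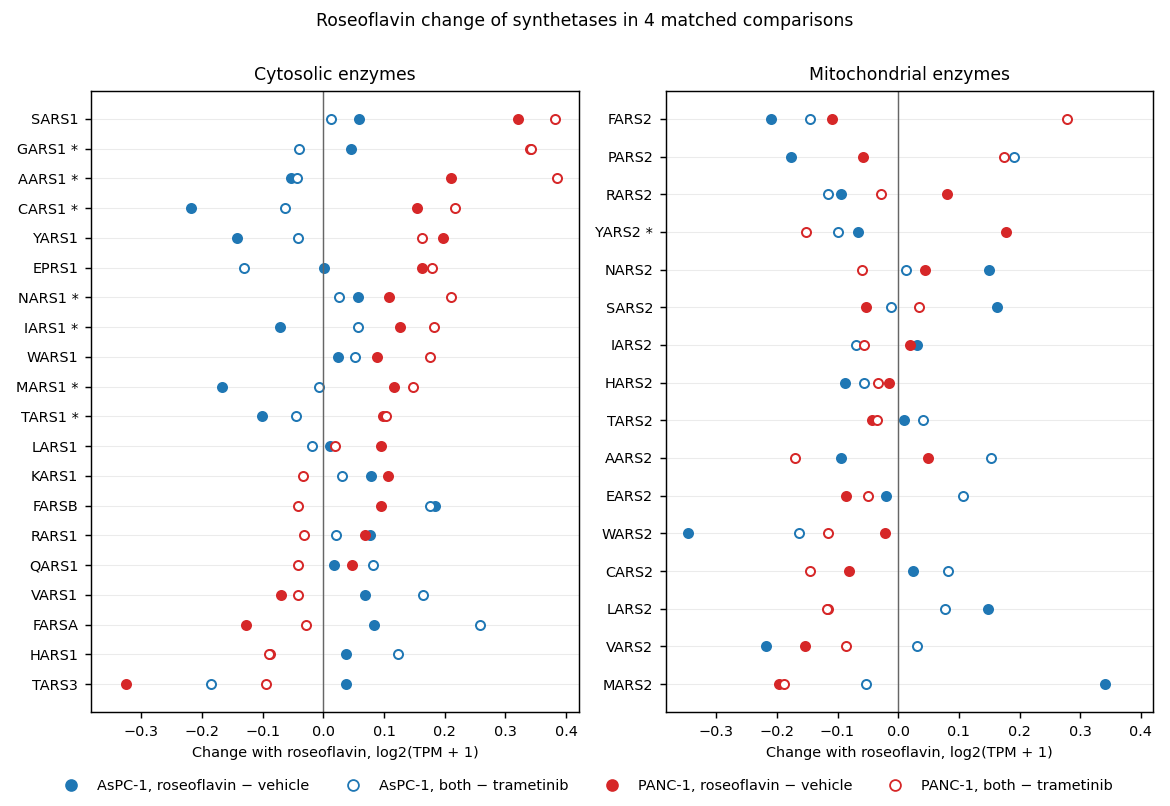
Change with roseoflavin of 36 synthetases on the log2(TPM + 1) scale, each point 1 library minus the matched library of the same line (blue AsPC-1, red PANC-1, filled without trametinib, open with it); an asterisk marks a promoter window with TGATGNAA. In PANC-1 both points lie above 0 for 12 of the 20 cytosolic enzymes shown in the left panel, and for 0 of the 16 mitochondrial enzymes shown in the right panel.

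In limma with Benjamini-Hochberg adjustment over all 19122 genes, none of the 38 members passed an adjusted p of 0.05 for roseoflavin in PANC-1, where 0% of all genes did. At an unadjusted p under 0.05, 10 members were higher and 0 lower, beside 5.01% of all genes higher and 4.46% lower. Without the variance trend 4 members were higher and 0 lower at this p, beside 4.94% and 4.17% of all genes. Leaving out any 1 PANC-1 library keeps only 1 library on one side of the comparison. In each such fit fewer members were at this p, and their share was nearer to that of all genes. Of these 10, 9 were cytosolic, with SARS1, GARS1, AARS1, YARS1 and CARS1 among them, and 1 was mitochondrial. The fitted change was positive for 17 of 21 cytosolic members, with a median of 0.13 on the log2(TPM + 1) scale, and for 5 of 17 mitochondrial members, with a median of -0.02, beside 49.4% of all genes. After the removal of mitochondrially encoded transcripts the positive counts were 13 of 21 and 3 of 17, with medians of 0.10 and -0.06, the median of all genes was -0.03, and 5 members were higher and 1 lower at an unadjusted p under 0.05, beside 3.17% and 6.76% of all genes. The difference between the class medians was 0.16, and it was 0.10 without the PANC-1 trametinib library and 0.22 without the PANC-1 vehicle library. The classes were described and not tested, since members are not replicates.

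Counted by library, 13 of the 21 cytosolic members were higher in both PANC-1 libraries with roseoflavin than in both without it, beside 22.9% of all genes. AARS1, CARS1, EPRS1, GARS1, IARS1, MARS1, NARS1, SARS1, TARS1 and YARS1 were among them. Without KARS1 and GARS1, which also encode mitochondrial forms, 12 of 19 cytosolic members did so. Of the mitochondrial members 1 of 17 did so. Conversely, 7 of 17 mitochondrial members (CARS2, EARS2, LARS2, MARS2, TARS2, VARS2 and WARS2) and 3 of 21 cytosolic ones (HARS1, TARS3 and VARS1) were lower in both, beside 22.7% of all genes. After removal of the mitochondrially encoded transcripts 11 cytosolic members were higher in both libraries, beside 16.5% of all genes, and 10 mitochondrial members lower, beside 29.6%.

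SARS1 and GARS1, which charge the tRNAs for serine and glycine, had the largest fitted changes of the free cytosolic enzymes in PANC-1. SARS1 (chromosome 1, 109213918 to 109238169, plus strand, GRCh38) was at 89.5 TPM with vehicle and 88.8 TPM with trametinib, against 112 TPM with roseoflavin and 116 TPM with both. In AsPC-1 it was at 45.1, 47.0, 48.5 and 49.0 TPM with vehicle, roseoflavin, trametinib and both. The 2 PANC-1 libraries with roseoflavin were therefore the highest of all 8, and the AsPC-1 libraries with and without roseoflavin overlapped. The fitted change of SARS1 in PANC-1 was 0.35 ± 0.05 (SE) on the log2(TPM + 1) scale, 1.28-fold, with a limma adjusted p of 0.145. Over the 7907 genes with a RefSeq mRNA and a mean of at least 10 TPM, its adjusted p in limma was 0.0152.

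GARS1 (chromosome 7, 30594681 to 30634033, plus strand) was at 56.0 TPM with vehicle and 55.1 TPM with trametinib in PANC-1, and at 71.2 TPM with roseoflavin and 70.2 TPM with both. Its AsPC-1 values were 18.4 TPM with vehicle, 19.1 TPM with roseoflavin, 20.0 TPM with trametinib and 19.4 TPM with both, so they overlapped there. The fitted change in PANC-1 was 0.34 ± 0.05 (SE), with a limma adjusted p of 0.218 over all genes and 0.0326 over the 7907 more abundant RefSeq genes. In that smaller set SARS1 and GARS1 were the 2 members that passed the adjusted threshold, out of 29 tested, beside 0.949% of its genes called. The fitted change was positive for 19 of the 29, beside 50.3% of the 7907 genes. Over all 12976 tested genes with a RefSeq mRNA, SARS1 alone passed (limma adjusted p of 0.0427), beside 0.478% of those genes.

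AARS1, the alanine enzyme (chromosome 16, 70252295 to 70289543, minus strand), was at 75.1 and 71.1 TPM in the PANC-1 libraries with vehicle and trametinib and at 87.0 and 93.0 TPM in those with roseoflavin and both. In AsPC-1 the corresponding 4 values were 26.65, 27.6, 25.7 and 26.8 TPM. Its change in PANC-1 was 0.30 ± 0.06 (SE; limma adjusted p of 0.315), and its promoter stretch is the one above in which the motif lies farthest from the start among the cytosolic genes. CARS1, the cysteine enzyme (chromosome 11, 3000922 to 3057613, minus strand), was at 61.5 and 58.9 TPM in PANC-1 without roseoflavin and at 68.6 and 68.7 TPM with it. The AsPC-1 levels of CARS1 ran the other way, with 18.3 and 18.2 TPM without the compound and 15.6 and 17.4 TPM with it. YARS1, for tyrosine (chromosome 1, 32775237 to 32818153, minus strand), showed the same order of libraries, with 43.1 and 43.9 TPM without roseoflavin and 49.6 and 49.2 TPM with it in PANC-1, and 18.5 and 18.0 TPM against 16.6 and 17.4 TPM in AsPC-1. The fitted changes in PANC-1 were 0.19 ± 0.06 (SE) for CARS1 and 0.18 ± 0.05 (SE) for YARS1, neither past the adjusted threshold.

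Within the multisynthetase complex, all 8 members had a positive fitted change in PANC-1, with a median of 0.09, and 5 of 8 were higher in both libraries, beside 22.9% of all genes. After removal of mitochondrially encoded transcripts 5 of 8 were positive. The positive share of all genes was 49.4% before that removal and 40.2% after it. EPRS1, the fused glutamate and proline enzyme (chromosome 1, 219968601 to 220046658, minus strand), was at 211 and 213 TPM in PANC-1 without roseoflavin and at 236 and 241 TPM with it. In AsPC-1 EPRS1 was at 88.5 TPM both with vehicle and with roseoflavin, at 102 TPM with trametinib and at 92.7 TPM with both. MARS1, the methionine enzyme, was at 91.8 and 90.5 TPM without roseoflavin and at 99.5 and 100.4 TPM with it in PANC-1, and between 24.3 and 27.4 TPM in AsPC-1. MARS1 and DDIT3 overlap on opposite strands over 982 bp, and DDIT3, an ATF4 target, was at 58.3 and 60.9 TPM against 97.3 and 107 TPM in the same PANC-1 libraries. Whether counting used the strand is not given in the sources used here, so the value of MARS1 is uncertain.

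KARS1, QARS1 and RARS1, also of the complex, had small fitted changes with roseoflavin in PANC-1, and the libraries with and without it overlapped. KARS1, for lysine, was at 70.3 to 75.8 TPM across the PANC-1 libraries and 74.1 to 78.3 TPM across those of AsPC-1, and its fitted change in PANC-1 was 0.04 ± 0.05 (SE). QARS1, for glutamine, and RARS1, for arginine, had fitted changes of 0.00 ± 0.05 (SE) and 0.02 ± 0.06 (SE) there. The scaffold genes and partners on a list of 7 (AIMP1, AIMP2, EEF1E1, AARSD1, DTD1, DTD2 and XPOT) had a median change of 0.01 in PANC-1. Of them, 1 was higher at an unadjusted p under 0.05, beside 5.01% of all genes, and none passed the adjusted threshold in limma. That gene was XPOT, the exporter of tRNA from the nucleus, at 105.1 and 104.7 TPM without roseoflavin and 121 and 123.2 TPM with it.

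A smaller number of cytosolic members had negative changes in both PANC-1 comparisons. FARSA, the alpha subunit of the phenylalanine enzyme, was at 55.2 TPM with vehicle and 50.4 TPM with roseoflavin in PANC-1, and at 56.5 TPM with trametinib and 55.4 TPM with both, so the libraries overlapped. Its fitted change there was -0.08 ± 0.09 (SE), and 0.03 without the PANC-1 roseoflavin library. In AsPC-1 the direction was opposite for FARSA, with 46.7 and 39.8 TPM without roseoflavin and 49.5 and 47.9 TPM with it. Its partner subunit FARSB was at 17.2 and 16.6 TPM without roseoflavin and 19.6 and 18.9 TPM with it in AsPC-1, and at 20.8 to 23.8 TPM in PANC-1 with overlapping groups. HARS1, for histidine, was at 16.5 and 16.7 TPM in PANC-1 without roseoflavin and at 15.45 and 15.6 TPM with it, while in AsPC-1 it was at 12.7 and 12.4 TPM against 13.1 and 13.6 TPM. VARS1, for valine, was at 76.3 and 74.8 TPM against 72.6 and 72.7 TPM in PANC-1. TARS3, a second cytosolic threonine enzyme, was at 15.2 TPM with vehicle and 12.5 TPM with trametinib in PANC-1, at 11.9 and 11.7 TPM with roseoflavin and both, and at 2.16 to 2.60 TPM in AsPC-1. The related and far more abundant TARS1 was at 193 and 184 TPM without roseoflavin and 207 and 197 TPM with it in PANC-1. None of these members passed the adjusted threshold in limma.

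**Figure D2:**
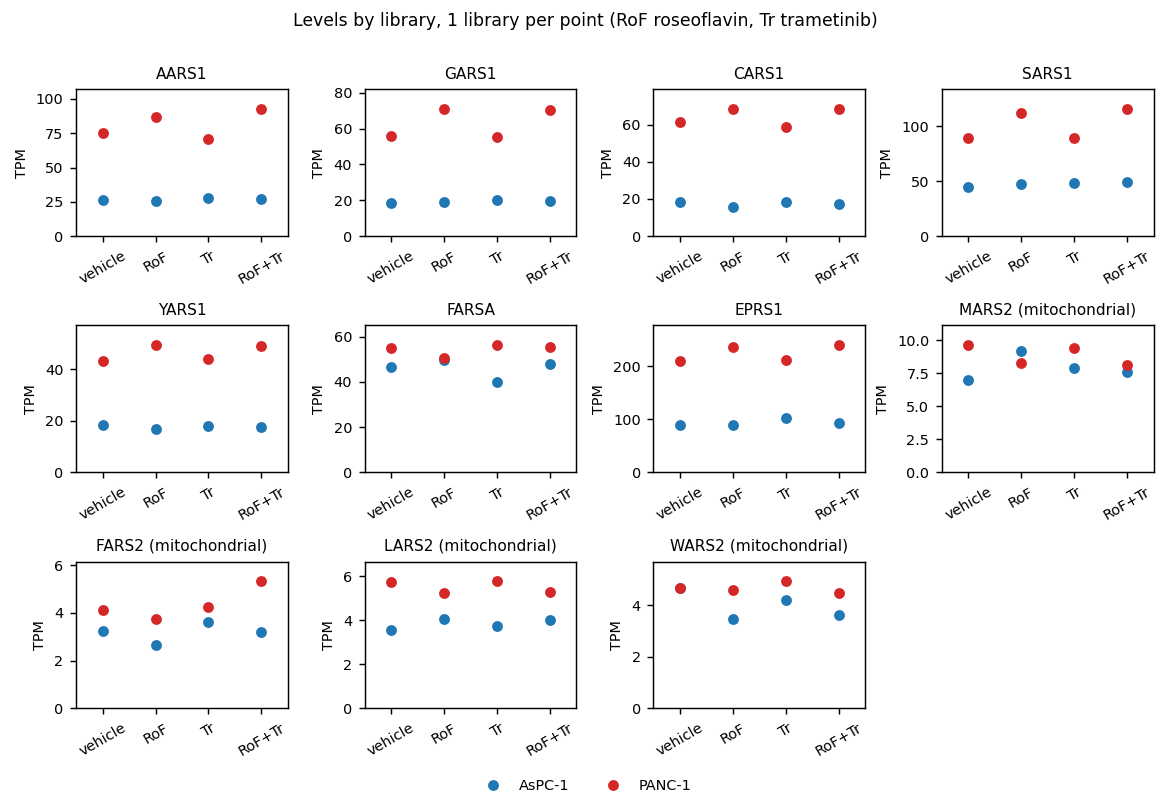
Level in TPM (each vertical axis starts at 0) of 7 cytosolic and 4 mitochondrial synthetases with large differences between the lines in their roseoflavin change, 1 point per library, blue for AsPC-1 and red for PANC-1. The PANC-1 points with roseoflavin stand above those without it for AARS1, GARS1, CARS1, SARS1, YARS1 and EPRS1, and the mitochondrial panels show no such order.

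MARS2, for methionine, was at 9.67 and 9.385 TPM in PANC-1 without roseoflavin and at 8.31 and 8.12 TPM with it. In AsPC-1 MARS2 was highest with roseoflavin alone, at 9.16 TPM, against 7.02, 7.93 and 7.605 TPM with vehicle, trametinib and both. LARS2, for leucine, was at 5.75 and 5.805 TPM without roseoflavin and 5.23 and 5.275 TPM with it in PANC-1, and at 3.56 and 3.74 TPM against 4.05 and 3.996 TPM in AsPC-1. Both therefore stood lower with roseoflavin in PANC-1, and LARS2 stood higher with it in AsPC-1.

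WARS2, for tryptophan, was lower in both AsPC-1 libraries with roseoflavin, at 3.46 and 3.63 TPM against 4.67 and 4.19 TPM. Its PANC-1 values, 4.57 and 4.48 TPM with roseoflavin and 4.65 and 4.945 TPM without, lay closer together. FARS2, for phenylalanine, was at 4.14 TPM with vehicle, 3.77 TPM with roseoflavin, 4.24 TPM with trametinib and 5.36 TPM with both in PANC-1, so the sign of its change there differed between the comparisons without and with trametinib. In AsPC-1 FARS2 was at 3.25 and 3.63 TPM without roseoflavin and at 2.67 and 3.19 TPM with it. MARS2, LARS2, WARS2 and FARS2 were all below 10 TPM, where a difference of 1 TPM is large on the log scale. The list of 10 partners in mitochondrial aminoacylation and translation (GATB, GATC, QRSL1, MTFMT, TUFM, TSFM, MTIF2, TRMU, MTO1 and GTPBP3) had a median change of -0.02 in PANC-1 and 0.00 in AsPC-1. By limma 0 of them passed the adjusted threshold in either line. At an unadjusted p under 0.05 there were also 0, beside 9.47% of all genes in PANC-1 and 9.58% in AsPC-1. TUFM, the mitochondrial elongation factor that carries charged tRNAs, was at 315 and 309 TPM in PANC-1 without roseoflavin and 288 and 298 TPM with it. MTO1 and GATB, which act in tRNA modification and in making mitochondrial glutamine tRNA, had differences between the lines of 0.16 ± 0.10 (SE) and -0.16 ± 0.14 (SE).

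In AsPC-1 after roseoflavin 21 of the 38 members had a positive fitted change, and 25 did with quantile normalization, beside 38.9% and 52.5% of all genes. None of the 38 passed the adjusted threshold in limma, where 0% of all genes did, and 3 had an unadjusted p under 0.05. Of these FARSB was higher, beside 2.24% of all genes, with a change of 0.18 ± 0.06 (SE). Lower were 2 members, beside 7.33% of all genes, among them WARS2 with a change of -0.25 ± 0.08 (SE). The median change was 0.0027 for the cytosolic members and 0.013 for the mitochondrial ones, beside -0.0283 for all genes, of which 38.9% had a positive change. By library 7 of the 38 (FARSA, FARSB, HARS1, KARS1, LARS2, NARS2 and QARS1) were higher in both AsPC-1 libraries with roseoflavin, beside 10.6% of all genes. Another 9, with CARS1, FARS2, HARS2, MARS1, WARS2 and YARS1 among them, were lower in both, beside 21.6%. With quantile normalization 7 cytosolic and 3 mitochondrial members were higher in both, beside 18.8% of all genes, and 4 and 1 lower, beside 13.8%, and at an unadjusted p under 0.05 3 members were higher and 0 lower. No member was higher with roseoflavin in both lines by this count, beside 2.09% of all genes.

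Whether the roseoflavin change differed between the lines was tested directly, with positive values for a larger change in PANC-1. None of the 38 members passed the adjusted threshold in limma, beside 0.0261% of all genes, and the smallest adjusted p was 0.316, for SARS1. At an unadjusted p under 0.05, 8 members had a larger change in PANC-1, beside 6.98% of all genes, and 0 had a smaller one, beside 3% of all genes. Fewer members did so when the PANC-1 trametinib library was left out, which keeps only 1 PANC-1 library without roseoflavin. All 8 were cytosolic, and values among them were 0.35 ± 0.08 (SE) for AARS1, 0.34 ± 0.08 (SE) for GARS1, 0.33 ± 0.09 (SE) for CARS1 and 0.31 ± 0.07 (SE) for SARS1. YARS1, EPRS1 and MARS1 followed at 0.27 ± 0.07 (SE), 0.24 ± 0.08 (SE) and 0.22 ± 0.08 (SE). GARS1 and SARS1 had changes close to 0 in AsPC-1. Negative differences, which mean a lower change in PANC-1, were -0.25 ± 0.13 (SE) for FARSA, -0.34 ± 0.14 (SE) for MARS2 and -0.23 ± 0.09 (SE) for LARS2. FARS2 and WARS2 had differences of 0.26 ± 0.16 (SE) and 0.19 ± 0.11 (SE). With quantile normalization or without the mitochondrially encoded transcripts, 6 members had an unadjusted p under 0.05 with a positive sign, beside 4.88% and 4.49% of all genes. With a negative sign 4 and 3 respectively had one, beside 5.198% and 5.61%.

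For each amino acid with both enzymes, the ratio of the cytosolic to the mitochondrial transcript does not depend on the common total of a library. There were 17 such pairs, with EPRS1 serving for glutamate and for proline. In PANC-1 the ratio was higher with roseoflavin in both comparisons in 12 of the 17 pairs and lower in both in 1, HARS1 to HARS2. In AsPC-1 it was higher in both in 5 pairs and lower in both in 4. The median log2 change of the ratio in PANC-1 was 0.12 without trametinib and 0.23 with it, against -0.06 and 0.03 in AsPC-1.

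The serine pair moved more than the median pair in PANC-1, with log2 changes of 0.38 without trametinib and 0.35 with it. RARS1 to RARS2 moved by only -0.02 and 0.0008 in the same comparisons. SARS1 to SARS2 was 0.860 with vehicle and 1.12 with roseoflavin in PANC-1, and 0.851 with trametinib and 1.09 with both, so it was below 1 without roseoflavin and above 1 with it. Which of the 2 transcripts is more abundant is uncertain, since SARS2 overlaps other expressed genes. In AsPC-1 the same ratio was 3.01, 2.79, 3.31 and 3.37 with vehicle, roseoflavin, trametinib and both. MARS1 to MARS2 was 9.49 and 9.65 in PANC-1 without roseoflavin and 11.97 and 12.4 with it. CARS1 to CARS2 was 9.69 and 9.42 without it and 11.5 and 12.3 with it, and AARS1 to AARS2 was 4.41 and 3.87 without it and 4.93 and 5.74 with it. The histidine pair, whose genes lie head to head and overlap by 437 bp, was 0.287 and 0.284 without roseoflavin and 0.272 with it in both comparisons. HARS2 also overlaps ZMAT2 on the same strand over 639 bp, and ZMAT2 had a mean of 157.6 TPM over the libraries. HARS1 also overlaps WDR55 on the opposite strand over 221 bp. Reads shared by these genes make the ratio uncertain.

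**Figure D3:**
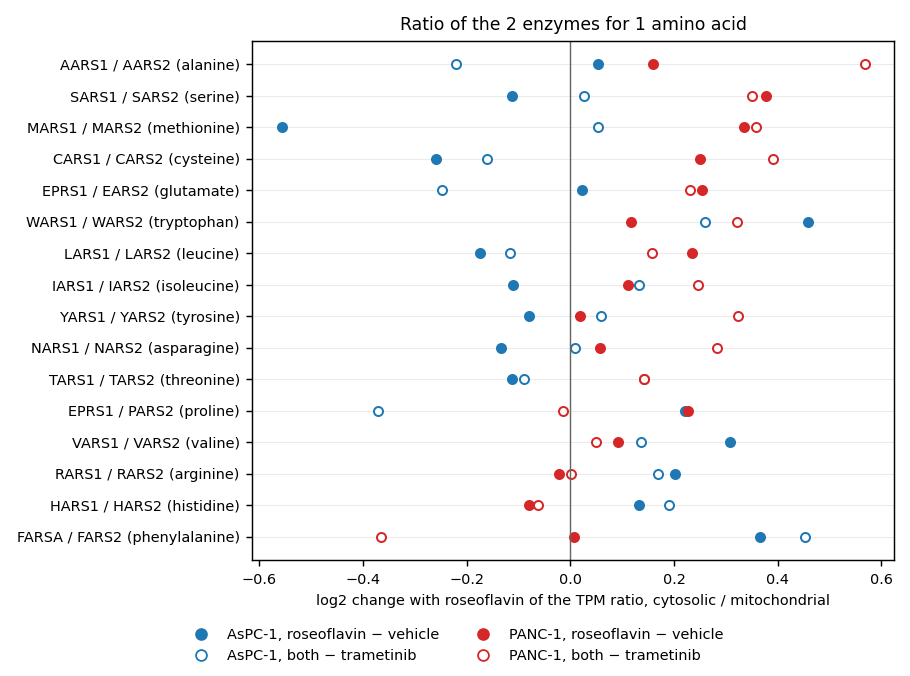
Log2 change with roseoflavin of the TPM ratio of the cytosolic to the mitochondrial enzyme for 16 of the pairs, each point 1 matched comparison (blue AsPC-1, red PANC-1, filled without trametinib, open with it). Both red points lie to the right of 0 in 12 pairs, and the blue points lie on both sides.

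Members with and without the letters of the ATF4 element in their promoter window were set side by side. All 7 cytosolic members with TGATGNAA were higher in both PANC-1 libraries with roseoflavin, beside 22.9% of all genes, with a median fitted change of 0.16. The sign of the fitted change was positive for 7 of 7 with quantile normalization and without mitochondrially encoded transcripts, beside 49.7% and 40.2% of all genes. The count by library was not made for these 7 under those scalings. Of the 9 cytosolic members with a window but without the motif, 3 (EPRS1, SARS1 and WARS1) were higher in both, a share near that of all genes. Their median was 0.03, with 7 of 9 positive, and 6 of 9 were positive with quantile normalization and 3 of 9, with a median of -0.01, without mitochondrially encoded transcripts. In AsPC-1 the medians were -0.05 and 0.05. SARS1, with the largest change in PANC-1, has no match in its windows. LARS1, TARS3, VARS1 and YARS1 were among the cytosolic members with no window to search. Of those named, LARS1 and YARS1 were higher in both PANC-1 libraries with roseoflavin, and TARS3 and VARS1 were lower in both. YARS2, the mitochondrial member with the motif, was at 28.5 and 32.6 TPM in PANC-1 without roseoflavin and 32.3 and 29.2 TPM with it, which overlap. Its gene overlaps DNM1L on the opposite strand over 18161 bp, so its level is uncertain.

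ATF4 and 27 of its known targets outside the family, a list of 28, had a median change of 0.40 in PANC-1 and -0.03 in AsPC-1. In PANC-1 22 of the 28 were higher at an unadjusted p under 0.05, beside 5.01% of all genes, and in AsPC-1 1 was higher and 6 lower, beside 2.24% and 7.33%. In the test of the difference between the lines 27 of 28 were positive, beside 57.9% of all genes. Of these, 21 had an unadjusted p under 0.05, beside 6.98% of all genes. DDIT3 and DDIT4 passed the adjusted threshold (limma adjusted p of 0.0383 for each), beside 0.0261% of all genes. STC2, VLDLR, PHGDH and ALDH1L2 were at 0.052 TPM or less in every AsPC-1 library, so their AsPC-1 change was bound to be near 0. Their differences between the lines repeat their PANC-1 changes, and STC2, PHGDH and ALDH1L2 are among the 21. With quantile normalization or without mitochondrially encoded transcripts 0 of the 28 passed the adjusted threshold, beside 0% of all genes under each. At an unadjusted p under 0.05, 21 and 17 respectively were positive, beside 4.88% and 4.49% of all genes. ATF4 itself was at 236 and 231 TPM in PANC-1 without roseoflavin and 270 and 272 TPM with it, and in AsPC-1 at 240 and 258 TPM against 220 and 223 TPM. DDIT4, a negative regulator of mTORC1, was at 645 and 690 TPM against 867 and 913 TPM in PANC-1, and at 99.6 and 110 TPM against 71.1 and 76.0 TPM in AsPC-1. NUPR1, a stress response gene, had a difference of 1.41 ± 0.35 (SE), with 39.7 and 37.7 TPM against 59.3 and 60.5 TPM in PANC-1, and 5.13 and 9.65 TPM against 4.03 and 3.34 TPM in AsPC-1. Synthetases and ATF4 targets were compared in the same libraries, so they share their controls, and what the shared direction rests on was not tested.

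The kinases of eIF2 alpha and the phosphatase subunits, a list of 7 with GCN1, had a median difference between the lines of 0.06. PPP1R15A and PPP1R15B, the subunits that direct the phosphatase to eIF2 alpha, were the 2 members higher at an unadjusted p under 0.05, beside 6.98% of all genes, with differences of 0.25 ± 0.08 (SE) and 0.22 ± 0.08 (SE). None passed the adjusted threshold in limma, and 0 of the 7 had an unadjusted p under 0.05 with quantile normalization or without mitochondrially encoded transcripts. EIF2AK4, the kinase known to bind uncharged tRNA, was at 14.7 and 15.0 TPM in PANC-1 without roseoflavin and 13.1 and 14.5 TPM with it. WARS1, for tryptophan, is also known as an interferon response gene, so a list of 9 interferon genes was set beside it. WARS1 was at 38.9 and 37.9 TPM in PANC-1 without roseoflavin and 41.4 and 42.9 TPM with it, and between 17.5 and 18.5 TPM in AsPC-1. The 8 interferon genes that could be tested had a median change of 0.01 in PANC-1 and -0.08 in AsPC-1, none past the adjusted threshold in limma. At an unadjusted p under 0.05, 1 was lower in PANC-1 and 2 in AsPC-1, beside 4.46% and 7.33% of all genes. IFIT1, IRF1 and IFIT2 had differences between the lines of 0.24 ± 0.12 (SE), 0.23 ± 0.17 (SE) and 0.17 ± 0.18 (SE).

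Trametinib at 1 nM moved no synthetase past the threshold. For its main effect over both lines 0 of 38 members passed in limma, beside 0% of all genes, and 0 had an unadjusted p under 0.05, beside 4.91% of all genes. The fitted changes ran from -0.10 ± 0.06 (SE) for VARS1 to 0.19 ± 0.09 (SE) for FARS2. In AsPC-1 8 of the 21 cytosolic members (AARS1, EPRS1, GARS1, LARS1, NARS1, RARS1, SARS1 and TARS1) and 0 of the 17 mitochondrial ones were higher in both libraries with trametinib, beside 24% of all genes, and 2 cytosolic and 4 mitochondrial members were lower, beside 13.3%. In PANC-1 FARSA, FARS2, HARS2 and SARS2 were, beside 16.1%, and FARSB was lower in both, beside 11.6%. For the difference between the lines in the trametinib change 0 members passed in limma, beside 0% of all genes. VARS2, the mitochondrial valine enzyme, at 0.32 ± 0.11 (SE), was the 1 member with an unadjusted p under 0.05, beside 7.28% of all genes. VARS2 overlaps GTF2H4 on the same strand over 5865 bp, so its value is uncertain.

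The roseoflavin main effect over both lines also passed for 0 members in limma, beside 0% of all genes. At an unadjusted p under 0.05, SARS1 was higher, at 0.19 ± 0.07 (SE), beside 2.03% of all genes, and WARS2 lower, at -0.16 ± 0.07 (SE), beside 5.07%. With quantile normalization 4 members were higher and 0 lower at this p, beside 3.55% of all genes in each direction. Positive changes were seen for 31 of 38 with it and 23 without it, beside 52.3% and 42.2% of all genes. A departure of the combination from the sum of both compounds was found for 0 members in limma, beside 0% of all genes, and 0 had an unadjusted p under 0.05, beside 2.8%. The largest such term was 0.30 ± 0.13 (SE), for PARS2, the mitochondrial proline enzyme.

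The lines differed in the level of most members whatever the treatment. In limma 35 of 38 members passed the adjusted threshold for PANC-1 minus AsPC-1, 34 higher in PANC-1 and 1, CARS2, lower, beside 83.8% of all genes (62.3% higher and 21.5% lower). The median difference of all genes was itself 0.55, and that of the members was 0.93, with 1.07 for the cytosolic and 0.58 for the mitochondrial ones. After quantile normalization, which brought the median of all genes to 0.04, 22 members were higher and 12 lower, beside 41.6% and 37.5% of all genes. Without mitochondrially encoded transcripts 24 were higher and 5 lower, beside 48% and 30.8% of all genes, whose median was 0.22. Counted by library, 33 members were higher in all 4 PANC-1 libraries than in all 4 AsPC-1 libraries, beside 59.4% of all genes, and CARS2 was lower in all 4, beside 19.8%.

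SARS2, the mitochondrial serine enzyme, had the largest difference, 2.69 ± 0.05 (SE), with a mean of 103.9 ± 2.6 TPM (SD over the 4 treatments) for PANC-1 against 15.2 ± 1.1 TPM for AsPC-1. Its gene (chromosome 19, 38915266 to 38930896, minus strand) overlaps a longer protein-coding annotation on the same strand, ENSG00000269547, over 15493 bp, which PANC-1 held at 324 to 338 TPM and AsPC-1 at 20.7 to 24.1 TPM. MRPS12, a mitochondrial ribosomal gene that starts beside SARS2 on the other strand, was at 229.7 to 255 TPM and 28.8 to 34.5 TPM. How reads shared by these genes were counted is not given in the sources used here, so the size of the SARS2 difference is uncertain. TARS3 followed at 2.06 ± 0.08 (SE), then CARS1 at 1.83 ± 0.08 (SE) and MARS1 at 1.81 ± 0.06 (SE). At the other end, CARS2 had a difference of -0.29 ± 0.05 (SE), while KARS1 (-0.05 ± 0.04, SE), TARS2 (-0.02 ± 0.04, SE) and MARS2 (0.15 ± 0.09, SE) did not pass. KARS1 and TARS2 passed as lower in PANC-1 under both other scalings, with KARS1 at -0.49 and -0.44 and TARS2 at -0.54 and -0.40.

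**Figure D4:**
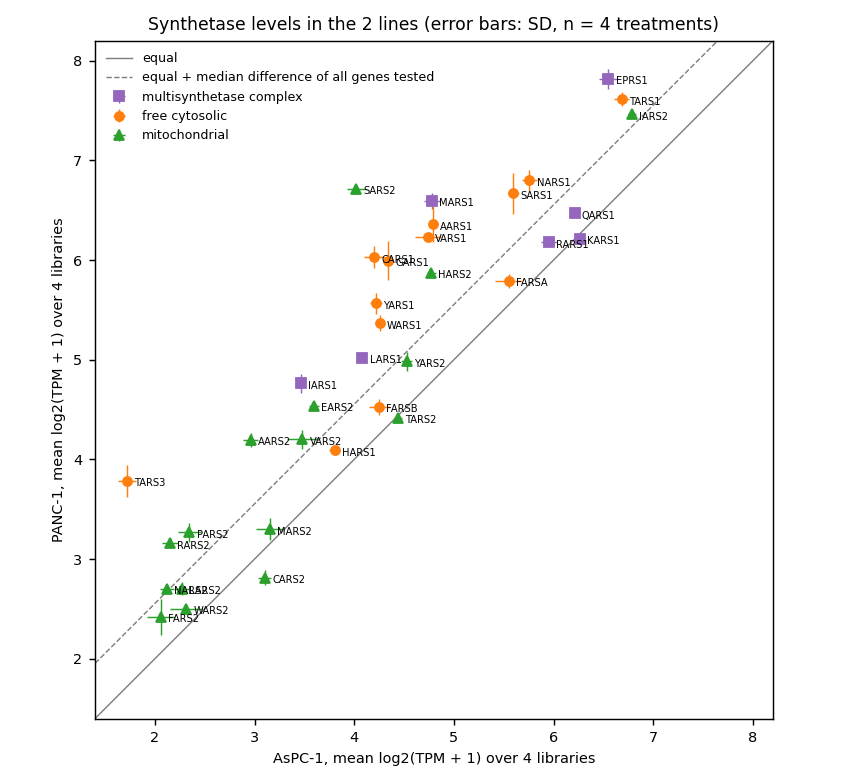
Mean level of the synthetases shown over the 4 treatments in AsPC-1 (horizontal) and PANC-1 (vertical) on the log2(TPM + 1) scale, with SD bars (n = 4 libraries per line), squares for the multisynthetase complex, circles for free cytosolic and triangles for mitochondrial enzymes. Most points lie above the solid line of equal level, CARS2 lies below it, and the dashed line adds the median difference of all genes, 0.55.

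The order of levels within a line was led by the same 3 members. In AsPC-1 IARS2, the mitochondrial isoleucine enzyme, was at 110 ± 3.0 TPM (SD over the 4 treatments), TARS1 at 102 ± 5.4 TPM and EPRS1 at 92.8 ± 6.2 TPM. In PANC-1 EPRS1 was at 225 ± 16 TPM, TARS1 at 195 ± 9.5 TPM and IARS2 at 175 ± 3.1 TPM. The ranges of TARS1 and EPRS1 overlapped in AsPC-1, and so did those of TARS1 and IARS2, whereas in PANC-1 the 3 ranges did not overlap. The lowest members were TARS3 in AsPC-1, at 2.30 ± 0.20 TPM, and FARS2 in PANC-1, at 4.38 ± 0.68 TPM, the latter overlapping WARS2 at 4.66 ± 0.20 TPM. The median member level was 26.5 TPM for cytosolic and 7.93 TPM for mitochondrial enzymes in AsPC-1, and 71.4 and 17.1 TPM in PANC-1. IARS2 and, in PANC-1, SARS2 stood above the other mitochondrial members, and isoleucine, serine, histidine and in AsPC-1 tyrosine were the amino acids for which the mitochondrial transcript was listed higher in at least 1 library, the last 3 with the uncertainty of overlapping genes given above.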

How the data were processed

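The authors deposited 1 table of TPM per gene for the 8 libraries, per the file headers. Per the labels' protocols, a column kit gave the RNA, and a stranded mRNA kit gave the libraries. Per the submitters' processing notes STAR 2.7.3a, HTSeq 2.0.2 and the hg38 build were used. The strand setting, the annotation and the step from counts to TPM are not given in the sources used here. Blank rows (985926) were dropped. The members and lists were chosen with earlier results of these data known.

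Values for the fits and the matched changes were put on the log2(TPM + 1) scale, where changes of low genes come out too small. Sums and the ratios of paired enzymes were taken from TPM with no pseudocount, so log2 changes of ratios are on another scale. The 19122 genes that reached 1 TPM in 2 libraries were fitted in limma 3.58.1 (R 4.3.3; lmFit, eBayes with a trend), with Benjamini-Hochberg adjustment over all of them and a threshold of 0.05. Main effects and the line difference used line, roseoflavin and trametinib as terms (4 residual degrees of freedom). The interactions of line with each compound and of the compounds were added 1 at a time (3 residual degrees of freedom), and the changes within each line came from the fit with line by roseoflavin. The fits were tested on simulated data. Other scalings, filters and pseudocounts and the omission of each library were tried. Full values are given for the 8 cytosolic and 4 mitochondrial members with the largest difference between the lines in the roseoflavin change, for the most and least abundant members, and for members with changes opposite to their class median in both PANC-1 comparisons. Some members enter the counts and sums but are not reported by name or shown in figures here. Any other member may be named. Of each further list the 3 genes with the largest such difference are named. ATF4, STC2, VLDLR, PHGDH and ALDH1L2, and the members given values outside these rules, were chosen after their values had been seen. Gene positions are from GENCODE release 29 (GRCh38) and promoter windows from RefSeq (GRCh38.p14). Counting error cannot be given, as the table holds no counts.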

Additional observations from a re-analysis of the deposited data

How the results depend on the processing

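Tried were quantile normalization, removal of mitochondrially encoded genes, a pseudocount of 0.1, no filter, genes with a RefSeq mRNA, those with a mean of at least 10 TPM, no variance trend, and leaving out each library. The number of members called for roseoflavin in PANC-1 was 0 in the fit reported. It was 1 over genes with a RefSeq mRNA and 2 over those with a mean of at least 10 TPM. In these sets fewer genes are tested, and limma borrows more degrees of freedom across genes (5.49 and 8.13, against 2.16 in the fit reported). The number called stayed at 0 for the other compound comparisons under every one of these settings. For the line difference 35 members were called, 33 to 35 when 1 library was left out and 27 to 35 otherwise. The cytosolic minus mitochondrial median for roseoflavin in PANC-1 was 0.16, and 0.10 to 0.22 with 1 library left out, an alternative added after seeing the data, as were the rescaled library counts and lists. In AsPC-1 it was -0.01, and -0.0858 to 0.0691 with 1 library left out. It was positive without the AsPC-1 roseoflavin library (0.0222) and without the AsPC-1 trametinib library (0.0691), and the cause was not tested. Among named members, FARSA in PANC-1 ran from -0.1846 to 0.029 with 1 library left out, the positive value without the PANC-1 roseoflavin library. FARS2 in PANC-1 ran from -0.066 to 0.235, and was -0.066 without the library with both compounds and -0.0233 without the trametinib library. With TGATGCAAT in place of TGATGNAA, 1 promoter window, that of TARS1, held the motif in place of 8. No paired analysis was possible because the labels carry no replicate numbers by which to fit a replicate block, while line and the other compound, which match the libraries, are terms of the fits. TPM keep no depth, so what depth limits cannot be stated.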

Other observations

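The cytosolic enzymes divide into class I and class II by the fold of their catalytic domain, and EPRS1 holds 1 of each. In PANC-1 after roseoflavin the 9 class I enzymes had a median fitted change of 0.13, with 8 of 9 positive, and the 11 class II enzymes one of 0.10, with 8 of 11 positive. Of all genes 49.4% had a positive change. Among class I, CARS1, IARS1, LARS1, MARS1, WARS1 and YARS1 were higher in both libraries with roseoflavin, beside 22.9% of all genes. So were 6 class II enzymes, with AARS1, GARS1, NARS1, SARS1 and TARS1 among them. The difference between the 2 classes was not tested.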
